A study of Mus musculus with 6 samples.

Results

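The 44 genes described here carry out the synthesis, activation and oxidation of fatty acids, and were compared between B16-F1 and D5.1G4, both mouse melanoma lines. They were chosen by gene symbol: a probe belongs to the set if its accession maps to 1 of the 44 symbols, and the rule uses no measured value. All 44 had a probe, of 20659 genes with a probe on the array. B16-F1 derives from the B16 melanoma, which arose in a C57BL/6 mouse. D5.1G4 is the line that the series text takes as the reference, and the labels say no more of its origin. Both lines were untreated. They were grown for 24 h in RPMI-1640 with 10% fetal bovine serum, from 1000000 cells seeded in 6-well plates, at a confluence between 75% and 95%, and the RNA was treated with DNase. Each line was measured on 3 one-colour Agilent arrays. Separate cultures are not stated for the replicates, so the p-values rest on the spread among these samples alone, and that spread may be technical.

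Cells build fatty acids in the cytosol from acetyl-CoA. ATP citrate lyase and the acetyl-CoA synthetases supply it, acetyl-CoA carboxylase makes malonyl-CoA, and fatty acid synthase joins the units into palmitate, which is then elongated and desaturated. Free fatty acids must be joined to coenzyme A before use. The acyl-CoA is then built into glycerolipids or moved by the carnitine shuttle into mitochondria for beta-oxidation. Malonyl-CoA, the product of the first committed step of synthesis, inhibits the entry step of the shuttle. Melanocytes and melanoma cells are not fat-storing cells, but proliferating tumour cells need fatty acids for membranes.

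Values are log2 signals relative to the 75th percentile of their array, so 0 is the signal of that percentile. They compare 1 probe between arrays, and the levels of different genes are not set against each other. A gene is called where limma's adjusted p is 0.05 or less and the fold is 2 or more, after the sizes in the series text, which names no test or adjustment. Between 54.4% and 62.0% of the spots of a B16-F1 array and between 53.4% and 53.9% of those of a D5.1G4 array were well above background. Arrays with the same scan date and scan identifier in the file headers are taken here to share a slide, and no slide label was used. The 2 arrays with the most such spots, B16-F1 replicates 2 and 3, share slide 1. Slide 2 holds B16-F1 replicate 1 with D5.1G4 replicates 2 and 3. Results that change with the slide are given with their values on slide 2. All 7 melanocyte markers listed (Mitf, Sox10, Tyr, Tyrp1, Dct, Pmel and Mlana) were well above background on all 6 arrays, and none was called. Under the minimum fold, Tyr was higher in B16-F1 by 0.78 (limma adjusted p = 0.00578) and Mlana lower by 0.68 (adjusted p = 0.0247). The other 5 had an adjusted p above 0.05. In a bulk sample, fewer cells of a type and less RNA per cell cannot be told apart.

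Of 42 fatty acid genes that could be tested, 10 rose and 2 fell in B16-F1 relative to D5.1G4. Over all 18442 features tested, 15.2% were called, 6.28% higher and 8.89% lower. Counts by step given below are of few genes, and stand against these same shares. The higher genes were Scd1, Acsl6, Cpt1c, Fabp7, Srebf1, Fabp3, Acss1, Dgat1, Acadvl and Fasn, and the lower genes were Acsbg1 and Cpt2. Another 8 had an adjusted p of 0.05 or less with a fold under 2 (19.7% of all features), 2 of them with a positive difference (8.2% of all features) and 6 with a negative one (11.5%). The median difference was -0.0062 over the 42 genes, and -0.0042 over all features tested. Of these genes 20 had a positive and 22 a negative difference. The other 2 genes, Gpam and Lipe, were too dim to test. Of the 37 genes well above background on all 6 arrays, 9 were called higher and 2 lower, against 5.21% and 8.36% of all features that bright. Among the 39 genes measured on every array, 26 had no overlap between B16-F1 and D5.1G4 arrays, and 50.7% of all such features had none. With normexp background correction, 7 of the genes were called higher and 3 lower, against 2.9% and 3.88% of all features.

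**Figure D1:**
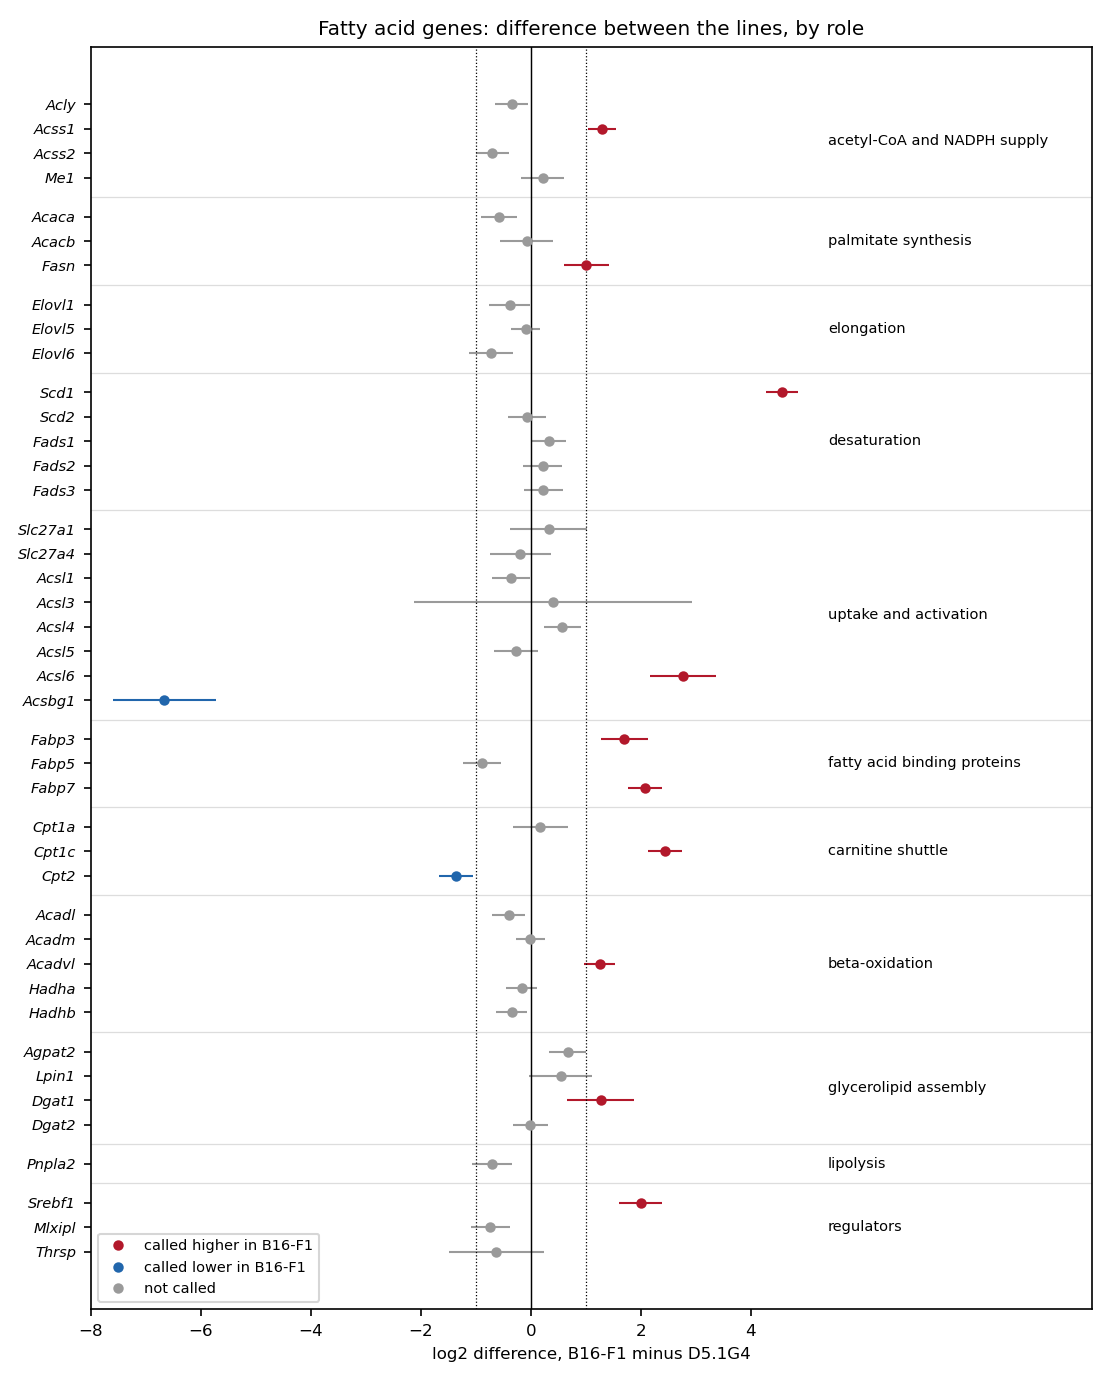
Log2 difference, B16-F1 minus D5.1G4, for the 42 genes tested, grouped by their step in fatty acid metabolism, with the 95% confidence interval of the limma fit as a bar and a fold of 2 in either direction as dotted lines. Calls in both directions lie beside genes near 0 in the same step, as with Scd1 at 4.57 and Scd2 at -0.07, and Acsbg1 at -6.66 has the largest difference of the set. The value of Acsl6 is as fitted, with no D5.1G4 array above background.

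Promoter windows from RefSeq (build GRCm38.p6) are shown for the synthase gene and for the called genes with the largest differences among those with 1 start in the table. Scd1 and Acsl6 had larger differences than Cpt1c and Fabp7 but are not shown, as Scd1 had no window and Acsl6 several. Each window is the 250 bases before the start, 5′ to 3′ on the strand of the gene. Capitals mark CCAAT or its reverse complement ATTGG, and GGGCGG or its reverse complement.

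The window of Fasn is chr11:120824548-120824797, minus strand, that of Cpt1c is chr7:44974852-44975101, minus strand, that of Fabp7 is chr10:57784673-57784922, plus strand, and that of Acsbg1 is chr9:54661886-54662135, minus strand.
Fasn: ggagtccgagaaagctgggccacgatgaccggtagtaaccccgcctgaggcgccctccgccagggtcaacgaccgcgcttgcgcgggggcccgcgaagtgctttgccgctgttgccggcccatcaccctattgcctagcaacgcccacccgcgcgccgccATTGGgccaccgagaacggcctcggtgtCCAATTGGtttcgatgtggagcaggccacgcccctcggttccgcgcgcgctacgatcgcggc
Cpt1c: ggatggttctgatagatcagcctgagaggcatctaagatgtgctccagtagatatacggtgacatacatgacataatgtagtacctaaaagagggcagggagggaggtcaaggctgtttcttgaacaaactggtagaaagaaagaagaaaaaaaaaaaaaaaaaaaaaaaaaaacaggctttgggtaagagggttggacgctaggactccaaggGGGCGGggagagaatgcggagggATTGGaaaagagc
Fabp7: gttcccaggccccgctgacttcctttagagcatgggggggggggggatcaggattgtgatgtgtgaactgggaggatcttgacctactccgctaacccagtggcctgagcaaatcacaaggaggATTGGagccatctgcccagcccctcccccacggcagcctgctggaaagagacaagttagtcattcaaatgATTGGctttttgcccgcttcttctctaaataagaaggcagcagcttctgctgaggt
Acsbg1: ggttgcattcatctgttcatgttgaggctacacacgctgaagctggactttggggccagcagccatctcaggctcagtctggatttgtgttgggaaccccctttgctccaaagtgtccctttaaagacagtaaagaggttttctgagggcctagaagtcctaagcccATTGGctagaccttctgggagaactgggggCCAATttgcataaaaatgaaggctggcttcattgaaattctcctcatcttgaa

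The Fasn window held 3 CCAAT boxes, starting at bases -90, -62 and -59 from the gene start, and the last 2 of them overlap on opposite strands. The Cpt1c window held 1 CCAAT box at -13 and 1 GGGCGG at -36. Windows of Fabp7 and Acsbg1 held 2 CCAAT boxes each, at -126 and -56 in Fabp7 and at -83 and -53 in Acsbg1. Every window shown held this motif, whereas those of the called genes Cpt2, Acss1, Acadvl and Fabp3 held none. On both strands, CCAAT stood in 33.9% of the 32851 windows in the RefSeq table, and in a window of 20 of the 38 genes of the set with one. GGGCGG stood in 32.7% of all windows, and in 25 of those 38 genes. The E-box CACGTG, known to bind the upstream stimulatory factors and the carbohydrate response factor, stood in 6.02% of all windows and in 4 of the 38 genes. A sterol regulatory element written TCACNCCAC stood in 1.05% of all windows and in 2 of the 38 genes. Of the 10 called genes with a window, 6 held CCAAT, 5 GGGCGG and 0 either of the other motifs, which says only that these letters are not in these 250 bases. Genes with several starts have several windows and count here if any of them holds the motif. The shares of all windows count each window once, so they are not in the same unit as the counts of genes. Scd1, Scd2, Fads1, Fabp5, Dgat1 and Dgat2 had no window in the table.

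Of the 4 genes that supply acetyl-CoA and NADPH, Acss1 was higher in B16-F1 and the others were not called. Acss1, the acetyl-CoA synthetase of mitochondria, stood at -0.68, -0.73 and -0.81 on the B16-F1 arrays and at -2.01, -2.01 and -2.10 on the D5.1G4 arrays. The arrays within each line lay close together and far from those of the other line. The difference was 1.30 (SE 0.10), a fold of 2.46 (adjusted p = 0.000401). Acly, the ATP citrate lyase that cleaves citrate to cytosolic acetyl-CoA, stood at 4.31, 4.11 and 4.05 in B16-F1, against 4.41, 4.59 and 4.50 in D5.1G4. All D5.1G4 arrays lay above all B16-F1 arrays, by little: the difference was -0.34 (95% interval -0.64 to -0.05, adjusted p = 0.0755). Acss2, the acetyl-CoA synthetase of the cytosol and nucleus, had a difference of -0.70 (adjusted p = 0.00705) on its brighter probe and 0.17 on the other, so its probes disagree in sign. Me1, the malic enzyme that makes NADPH in the cytosol, had a difference of 0.22, with D5.1G4 replicate 2 set missing for an uneven spot.

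In palmitate synthesis the gene of the synthase was higher in B16-F1, and that of the carboxylase was not called. Fasn, the multifunctional fatty acid synthase, stood at -1.17, -1.27 and -1.55 in B16-F1, against -2.45, -2.08 and -2.48 in D5.1G4. The lines did not overlap, and the lowest B16-F1 array and the highest D5.1G4 array were neighbours. The difference of 1.01 (SE 0.17, 95% interval 0.60 to 1.41) is a fold of 2.01 (adjusted p = 0.00568), so the call sits at the minimum fold. It was lost in 8 of the 21 alternatives: with the authors' values (0.97), quantile normalization (0.93), normexp background correction (0.86, adjusted p = 0.0631), without B16-F1 replicate 1 (0.93) or 2 (0.98), without D5.1G4 replicate 1 (0.95), which is the only array of slide 3, and without D5.1G4 replicate 3 (0.94). Acaca, the cytosolic acetyl-CoA carboxylase that makes malonyl-CoA for synthesis, stood at 3.39, 3.31 and 3.08 in B16-F1, against 3.70, 3.95 and 3.84 in D5.1G4. Every D5.1G4 array was above every B16-F1 array, and the difference of -0.57 (SE 0.14, adjusted p = 0.0199) was under the minimum fold. Fasn and Acaca, successive steps of the pathway, thus had differences of opposite sign. Acacb, the carboxylase at the mitochondrial surface, had a difference of -0.07 (95% interval -0.56 to 0.41), with overlapping arrays.

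None of the 3 elongases was called, and all 3 differences were negative. Elovl6, which elongates palmitate to stearate, stood at 1.63, 1.37 and 1.16 in B16-F1, against 1.95, 2.28 and 2.11 in D5.1G4. The groups did not overlap, and the difference was -0.73 (SE 0.16, adjusted p = 0.0175), a D5.1G4 level 1.65-fold that of B16-F1. Elovl1, which acts on very long saturated chains, had a difference of -0.39 on its brighter probe and 0.44 on the other, neither past the adjusted threshold. Elovl5, which elongates polyunsaturated chains, had a difference of -0.09 (95% interval -0.36 to 0.18).

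The desaturases held the highest positive difference of the set, in 1 gene of a family. Scd1, the stearoyl-CoA desaturase that puts the first double bond into saturated acyl-CoA, stood at 2.64, 2.49 and 2.59 on the B16-F1 arrays and at -2.07, -1.84 and -2.08 on the D5.1G4 arrays. All 3 B16-F1 arrays were far above all 3 D5.1G4 arrays, and the spread within a line was small beside the gap. The difference was 4.57 (SE 0.12), a fold of 23.8 (adjusted p = 1.65e-05), and it lay between 4.07 and 4.65 in all alternatives. Scd2, a second enzyme of the same activity, stood at 5.62, 5.70 and 5.49 in B16-F1, against 5.45, 5.82 and 5.74 in D5.1G4. These arrays overlapped, and the difference was -0.07 (95% interval -0.41 to 0.28, adjusted p = 0.747), an interval that leaves out a fold of 2 in either direction. Its sign turned with the scaling, to 0.18 in the authors' values and 0.16 with quantile normalization. Fads1 and Fads2, the delta-5 and delta-6 desaturases of polyunsaturated chains, and their neighbour Fads3 had differences of 0.34, 0.22 and 0.23, none called.

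All 4 mouse Scd genes lie on chromosome 19. Scd3, from the list of other genes, stood at -1.23, -1.12 and -1.58 in B16-F1, against -3.21, -3.81 and -3.54 in D5.1G4, and the lines did not overlap. Its difference was 2.21 (SE 0.20, adjusted p = 0.000667) on the brightest of its probes and 0.18 on another, so its probes disagree. Scd4 was well above background on 1 of the 6 arrays and was not tested. Whether RNA of Scd1 binds the probes of its relatives was not tested.

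**Figure D2:**
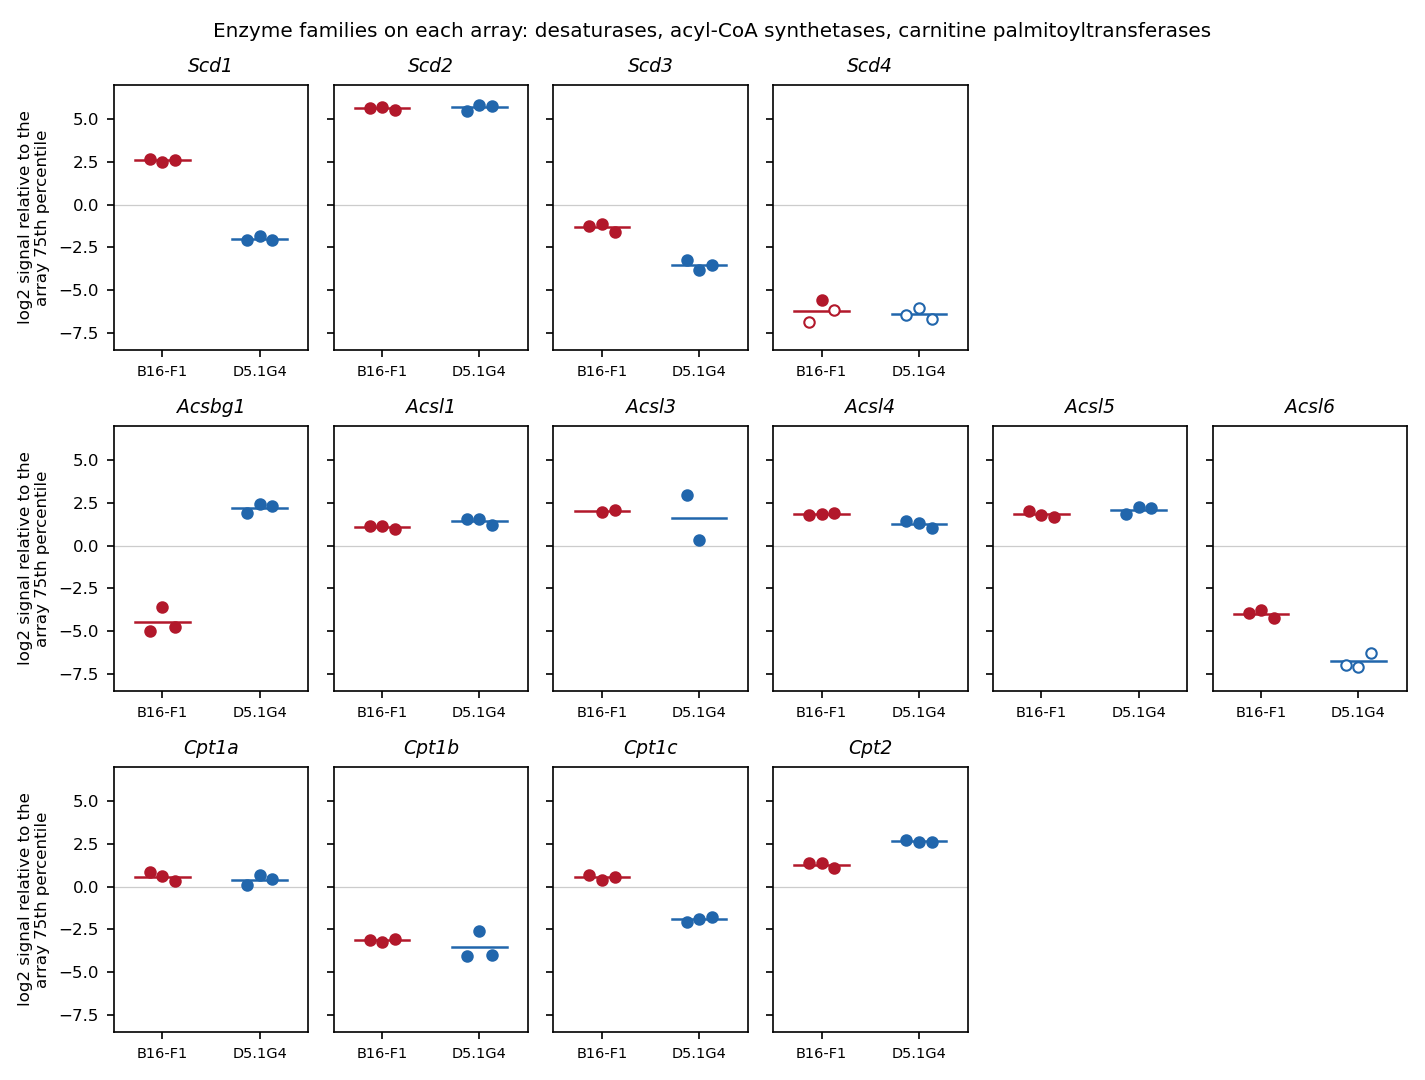
Log2 signal relative to the array's 75th percentile (vertical axis) on each B16-F1 and D5.1G4 array for 3 families, with the mean of a line as a bar and hollow points for arrays where the probe was not well above background. Within each family called genes stand beside genes whose arrays overlap: Scd1 (difference 4.57) beside Scd2 (-0.07), Acsbg1 (-6.66) beside Acsl5 (-0.26), and Cpt1c (2.44) and Cpt2 (-1.36) beside Cpt1a (0.18).

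Uptake and activation held the largest difference of the set. Acsbg1, the "bubblegum" acyl-CoA synthetase, which activates long and very long chains and is known from brain, adrenal gland and gonads, stood at -4.99, -3.59 and -4.74 on the B16-F1 arrays and at 1.91, 2.45 and 2.30 on the D5.1G4 arrays. The gene was far higher on every D5.1G4 array, and still well above background on every B16-F1 array. Its difference was -6.66 (SE 0.38), which is 101-fold lower in B16-F1 (adjusted p = 0.00013). Normexp background correction gave -5.22 (adjusted p = 0.00627), and slide as a block -7.36, so the size of the fold depended on these settings, whereas the gene was called in all 21 alternatives.

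Acsl6, a long-chain acyl-CoA synthetase known from brain and testis, was higher in B16-F1, at a low level. It stood at -3.92, -3.78 and -4.24 in B16-F1, against -6.94, -7.06 and -6.25 in D5.1G4, where no array was well above background. The D5.1G4 values are therefore bounds, and the RNA was at least 2.22-fold higher in cells of B16-F1. Acsl6 passed the brightness filter through its B16-F1 arrays alone. Its adjusted p of 0.000614 (limma) is that of the fitted difference, not of the bound. Normexp background correction gave a fitted difference of 0.96 (adjusted p = 0.305), which is no call and a smaller fold than this bound. Acsl4, the synthetase that prefers arachidonate, stood at 1.76, 1.82 and 1.90 in B16-F1, against 1.42, 1.30 and 1.04 in D5.1G4. Without overlap between the lines, the difference of 0.57 (SE 0.14, adjusted p = 0.0202) was under the minimum fold.

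Acsl3, the synthetase of the endoplasmic reticulum and nascent lipid droplets, could be measured on 4 arrays, since the spots of B16-F1 replicate 1 and D5.1G4 replicate 3 were marked uneven or outlying. It stood at 1.96 and 2.09 on B16-F1 replicates 2 and 3, against 2.94 and 0.31 on D5.1G4 replicates 1 and 2, which lie on either side of the B16-F1 values. The difference was 0.40 (95% interval -2.12 to 2.92, adjusted p = 0.769), and 1 array set its sign: it was 1.72 without D5.1G4 replicate 1 (adjusted p = 0.0152) and -0.91 without D5.1G4 replicate 2. Acsl1 and Acsl5, further long-chain synthetases, had differences of -0.36 and -0.26, and Slc27a1 and Slc27a4, fatty acid transport proteins of the plasma membrane, of 0.32 and -0.19, with none past the threshold.

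The fatty acid binding proteins, which carry fatty acids through the cytosol, were 2 higher and 1 under the minimum fold. Fabp7, known from radial glia, stood at 0.95, 0.77 and 0.68 in B16-F1, against -1.38, -1.26 and -1.19 in D5.1G4. All B16-F1 arrays were above the D5.1G4 arrays, with a difference of 2.08 (SE 0.12), a fold of 4.22 (adjusted p = 0.000145). Fabp3, the form of heart muscle, stood at -2.74, -2.75 and -3.28 in B16-F1, against -4.64, -4.57 and -4.66 in D5.1G4. The lines did not overlap, the difference was 1.70 (SE 0.17), a fold of 3.26 (adjusted p = 0.000972), and a second probe gave 1.73. With normexp background correction Fabp3 had a difference of 0.99 (adjusted p = 0.172) and lost its call. Fabp5, the epidermal form, had a difference of -0.89 (SE 0.14, adjusted p = 0.00497), 1.85-fold higher in D5.1G4. With normexp it was called lower in B16-F1 (-1.08, adjusted p = 0.0335).

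Fabp7 and Acsbg1 are both known from glia, and moved in opposite directions. Of the glial markers reported here, Gfap was below the background limit on all 3 D5.1G4 arrays. It was at least 1.37-fold higher on those of B16-F1 (adjusted p of the fitted difference = 0.00305). Mbp was called lower in B16-F1 (-1.17, adjusted p = 0.00765), and Aqp4 had a difference of 0.60 (adjusted p = 0.338). Both Mbp and Aqp4 were well above background on all 6 arrays. The part of these markers in the results on Fabp7 and Acsbg1 was not tested.

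Among the genes grouped under the carnitine shuttle, 1 was higher, 1 was lower and 1 had overlapping arrays. The part of each in the shuttle in these cells was not tested. Cpt1c, the brain form of carnitine palmitoyltransferase 1, stood at 0.67, 0.40 and 0.54 in B16-F1, against -2.04, -1.90 and -1.78 in D5.1G4. The lines were well apart, with a difference of 2.44 (SE 0.13), a fold of 5.43 (adjusted p = 9.68e-05), and a second probe gave 2.63. Cpt1a, the liver form, which catalyses the entry step that malonyl-CoA inhibits, stood at 0.83, 0.59 and 0.30 in B16-F1, against 0.10, 0.65 and 0.44 in D5.1G4. These arrays overlapped (difference 0.18, 95% interval -0.32 to 0.67, adjusted p = 0.538). Cpt2, the inner membrane enzyme that returns the acyl group to coenzyme A, stood at 1.36, 1.36 and 1.095 in B16-F1, against 2.72, 2.60 and 2.58 in D5.1G4. All D5.1G4 arrays were above the B16-F1 arrays, and the gene was 2.57-fold lower in B16-F1 (difference -1.36, SE 0.12, adjusted p = 0.00066). The dimmer Cpt2 probe gave -0.36, also well above background on all 6 arrays, and the mean over both probes, -0.86, was under the minimum fold.

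Of the beta-oxidation enzymes, which shorten acyl-CoA in the mitochondrion, the first step for the longest chains was higher in B16-F1. Acadvl, the very long-chain acyl-CoA dehydrogenase, stood at 2.75, 2.83 and 2.74 in B16-F1, against 1.37, 1.60 and 1.59 in D5.1G4. The B16-F1 arrays were all higher, with a difference of 1.26 (SE 0.11), a fold of 2.39 (adjusted p = 0.000662). Acadm, the medium-chain dehydrogenase, stood at 1.83, 1.79 and 1.72 in B16-F1, against 1.82, 1.69 and 1.86 in D5.1G4. These arrays overlapped, and the 95% interval of the difference, -0.27 to 0.25 around -0.01, leaves out a fold of 2 in either direction. Hadha, the alpha subunit of the trifunctional protein that carries out the later steps, stood at -0.12, -0.31 and -0.33 in B16-F1, against -0.15, -0.0029 and -0.12 in D5.1G4. The lines overlapped, with a difference of -0.16 (95% interval -0.44 to 0.12, adjusted p = 0.322). Its partner subunit Hadhb had a difference of -0.34 (adjusted p = 0.0632), and Acadl, the long-chain dehydrogenase, of -0.40 (adjusted p = 0.0529) with D5.1G4 replicate 3 set missing.

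In glycerolipid assembly 1 of 4 genes tested was called. Dgat1, which adds the last acyl group of a triglyceride, stood at -0.62, -0.83 and 0.07 in B16-F1, against -1.88, -1.72 and -1.58 in D5.1G4. B16-F1 replicate 3 was above the other B16-F1 arrays, and all of them were above the D5.1G4 arrays. The difference was 1.27 (SE 0.25), a fold of 2.41 (adjusted p = 0.0103). With slide as a block it was 1.03 (adjusted p = 0.14) and no longer called. That value rests on slide 2 alone, where 1 B16-F1 array was set against 2. Dgat2, an unrelated enzyme with the same reaction, had a difference of -0.0047 (95% interval -0.33 to 0.32), with overlapping arrays. Agpat2, which adds the middle acyl group, had a difference of 0.67 (adjusted p = 0.0116), and Lpin1, the phosphatidate phosphatase, of 0.55 (adjusted p = 0.123). Gpam, the mitochondrial enzyme of the first step, was well above background on 2 arrays, 1 of each line.

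Neither lipase was called. Pnpla2, the adipose triglyceride lipase, had a difference of -0.71 (SE 0.15, adjusted p = 0.0146), 1.63-fold higher in D5.1G4, with no overlap between the lines. Lipe, the hormone-sensitive lipase of adipocytes, was not well above background on any of the 6 arrays. Of the 6 adipocyte markers Adipoq, Lep, Plin1 and Cfd were likewise not well above background on any array, Cidec was on 2 B16-F1 arrays, and Retn had a difference of -2.49 (adjusted p = 0.0191). The summed signal of these markers was 0.0452 to 0.163 of the array's 75th percentile in B16-F1 and 0.196 to 0.379 in D5.1G4, of which Retn alone gave 0.0148 to 0.0517 in B16-F1 and 0.133 to 0.325 in D5.1G4. The part of these markers in the results on lipid genes was not tested.

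Of the regulators, Srebf1 was higher in B16-F1. It encodes SREBP-1, the transcription factor known to drive Fasn, Acaca, Acly, Elovl6 and Scd1, and stood at -0.94, -0.49 and -0.66 in B16-F1, against -2.67, -2.55 and -2.86 in D5.1G4. Every B16-F1 array was above every D5.1G4 array, with a difference of 2.00 (SE 0.16), a fold of 3.99 (adjusted p = 0.000403). Among the known targets named, Scd1 and Fasn were called higher, whereas Acly, Acaca and Elovl6 had negative differences of -0.34, -0.57 and -0.73. Mlxipl, the carbohydrate response factor ChREBP, had a difference of -0.73 (SE 0.14, adjusted p = 0.0102), 1.66-fold higher in D5.1G4. Thrsp, a small protein that promotes lipogenesis in liver and fat, was well above background on 4 arrays and had a difference of -0.62 (95% interval -1.49 to 0.24).

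**Figure D3:**
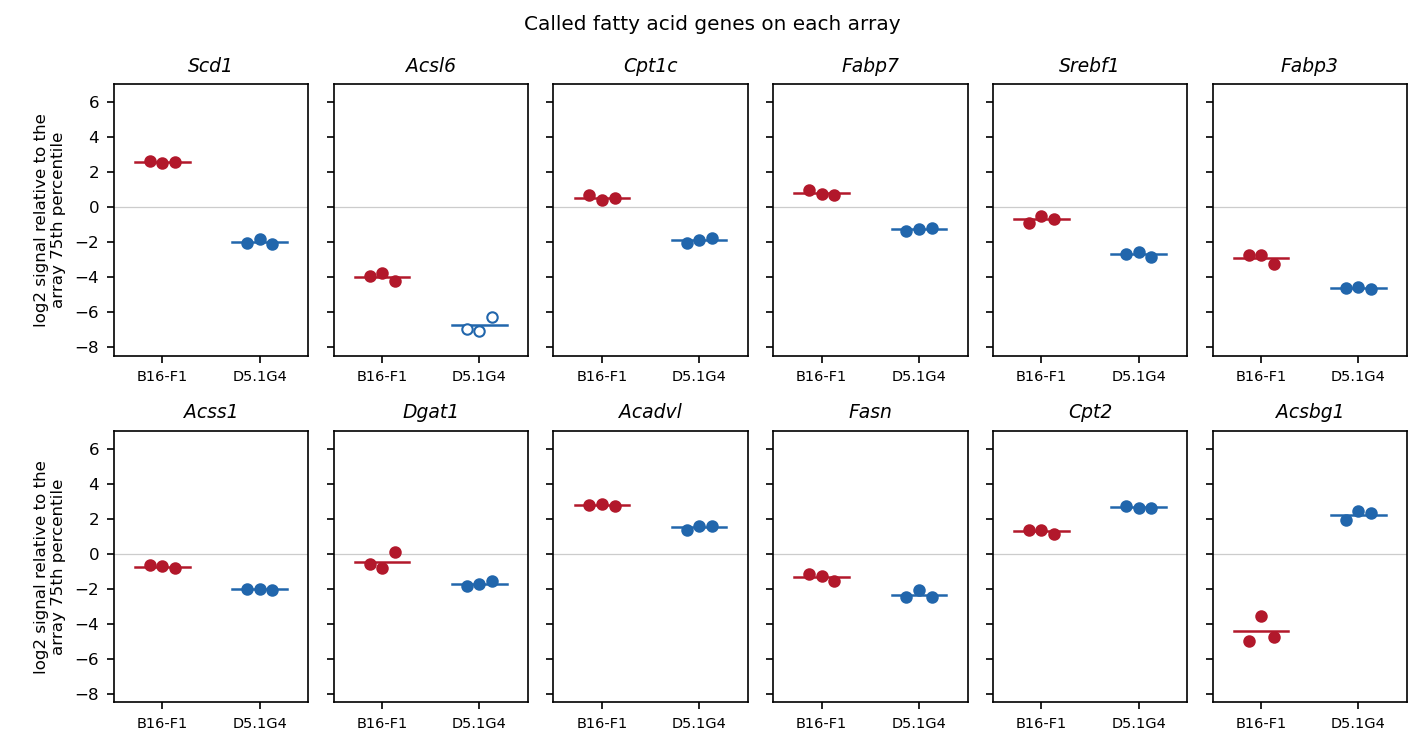
Log2 signal relative to the array's 75th percentile (vertical axis) on each array for the 12 called genes, in order of their difference, with the mean of a line as a bar and hollow points for arrays not well above background. No gene's B16-F1 and D5.1G4 arrays overlap, and the scatter within a line is widest for Acsbg1 in B16-F1, with an SD of 0.75.

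The calls were also compared by slide. With slide as a block, 9 fatty acid genes were called higher and 2 lower, and Dgat1 was the call lost. Of all features, 2573 were called in that fit, against 2799 without the block, and their shares by direction are not given here. The block gave differences of 4.60 for Scd1, 2.51 for Cpt1c, 2.18 for Fabp7, 1.77 for Srebf1 and 1.88 for Fabp3. For the smaller calls it gave 1.38 for Acss1, 1.16 for Acadvl, 1.11 for Fasn and -1.23 for Cpt2. Acsl6, with a bound only in D5.1G4, had an adjusted p of 0.0176. Slides 1 and 3 each hold arrays of a single line, so the differences of this fit rest on slide 2 alone. There 1 B16-F1 array is set against 2 D5.1G4 arrays. A fit within slide 2 gives the same differences by construction and is no second check. The block moved the median of all features to -0.15 and that of the fatty acid genes to 0.05.

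**Figure D4:**
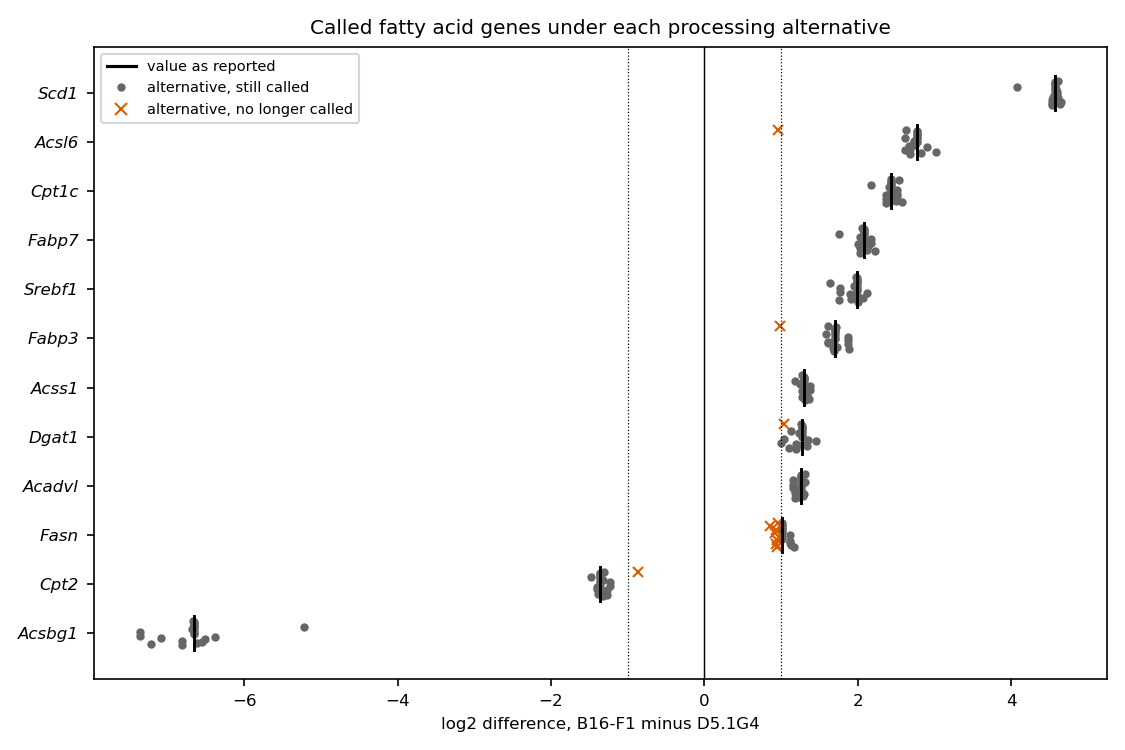
Log2 difference, B16-F1 minus D5.1G4, of the 12 called genes as reported (black bar) and under each of the 21 processing alternatives (grey points where still called, crosses where the call was lost). Scd1, Cpt1c, Fabp7, Srebf1, Acss1, Acadvl and Acsbg1 were called in every alternative, and the crosses of Fasn gather at a log2 difference of 1, the minimum fold. Values of Acsl6 are as fitted and are not bounds.

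A further list of 126 genes of fatty acid metabolism was read in the same fit. Of the 102 that could be tested, 13 (12.7%) rose and 8 (7.84%) fell in B16-F1, against 6.28% and 8.89% of all features, and their median difference was 0.06. Normexp background correction left 3 higher (2.94%) and 6 lower (5.88%), against 2.9% and 3.88% of all features, so under it the share called higher was that of all features. The calls lost with it were Acox2, Elovl3, Usf1, Decr2, G0s2, Lpin3, Acsm3, Slc27a3, Prkaa1, Slc25a20, Hacd4 and Mogat2. Of the 84 genes well above background on all 6 arrays, 7 were called higher (8.33%) and 8 lower (9.52%), against 5.21% and 8.36% of all features that bright. Amounts given below for this list are log2 differences.

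In elongation and desaturation 2 of 11 genes tested were higher and 2 lower, against 6.28% and 8.89% of all features. Elovl3, an elongase of saturated chains known from skin and brown fat, was well above background on none of the D5.1G4 arrays. Its B16-F1 level was at least 1.47-fold higher, a bound under the minimum fold, and its call rests on the fitted difference (adjusted p = 4.51e-05). Hacd4, a dehydratase of the elongation cycle, fell by 2.38 (SE 0.11, adjusted p = 5.69e-05). Elovl4, which makes the longest chains in retina and skin, fell by 1.42 (SE 0.13, adjusted p = 0.000724), and its other probe gave -1.25.

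The thioesterases, which split acyl-CoA back to fatty acid, had 2 higher and 1 lower of 7, against 6.28% and 8.89% of all features. The cytosolic Acot1 was higher by 1.68 (SE 0.16, adjusted p = 0.000745) and its mitochondrial relative Acot2 by 1.48 (SE 0.14, adjusted p = 0.000758). Acot1 and Acot2 are close in sequence, and whether each binds the other's probe was not tested. Acot7, the form abundant in brain, fell by 1.46 (SE 0.16, adjusted p = 0.00123).

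In peroxisomal beta-oxidation 2 of 11 were higher and 0 lower, against 6.28% and 8.89% of all features. Acox2, the oxidase of branched chains and bile acid intermediates, was likewise not above background on any D5.1G4 array. Its mean B16-F1 level was at least 2.64-fold higher in the processing reported here (adjusted p of the fitted difference = 6.76e-05). Normexp background correction gave a fitted difference of 1.30 (adjusted p = 0.172), a smaller fold than this bound and no call. Decr2, the peroxisomal dienoyl-CoA reductase, was higher by 1.99 (SE 0.36, adjusted p = 0.0075). With slide as a block it was higher by 1.58, a value from slide 2 alone, and was not called (adjusted p = 0.0988). No gene of the 15 tested in mitochondrial beta-oxidation was called. Of these, 5 had an adjusted p of 0.05 or less under the minimum fold, against 19.7% of all features.

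Glycerolipid assembly had 4 lower and 1 higher of 11, against 8.89% and 6.28% of all features. Gpat3, the glycerol-3-phosphate acyltransferase of the endoplasmic reticulum, stood at -2.00, -2.06 and -2.18 in B16-F1, against 1.32, 1.37 and 1.76 in D5.1G4. It was 11.8-fold lower in B16-F1 (difference -3.56, SE 0.15, adjusted p = 4.87e-05), the largest lower call of this list. Mogat2, a monoacylglycerol acyltransferase, Agpat3, which acylates lysophosphatidate, and Cds2, which makes CDP-diacylglycerol, fell by 1.77, 1.58 and 1.35 (adjusted p = 0.00246, 0.00112 and 0.00201). Lpin3, a phosphatidate phosphatase, was higher by 1.63 (SE 0.33, adjusted p = 0.0112). With slide as a block it was higher by 1.38, a value from slide 2 alone, and lost its call (adjusted p = 0.106).

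Among regulators, Ppargc1a, the coactivator PGC-1alpha that drives mitochondrial genes, stood at -2.59, -2.91 and -2.996 in B16-F1, against 0.58, -0.37 and -0.05 in D5.1G4. The D5.1G4 arrays were all far higher, with a difference of -2.89 (SE 0.26, adjusted p = 0.000658), 7.39-fold lower in B16-F1, and -2.75 on a second probe. Usf1, an upstream stimulatory factor, had no D5.1G4 array well above background. Its mean B16-F1 level was at least 3.32-fold higher in the processing reported here (adjusted p of the fitted difference = 0.00539). Normexp background correction gave a fitted difference of 1.07 (adjusted p = 0.188), a smaller fold than this bound and no call. Without the arrays of slide 1 the adjusted p of Usf1 was 0.0933, and within slide 2 it was 0.0303. Prkaa1, a catalytic subunit of the AMP-activated kinase that phosphorylates acetyl-CoA carboxylase, was higher by 1.06 (SE 0.11, adjusted p = 0.000979).

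The remaining calls of the list were higher in B16-F1. G0s2, an inhibitor of the lipase Pnpla2, was higher by 1.82 (SE 0.12, adjusted p = 0.000251). Slc27a3, a transport protein relative with synthetase activity, was higher by 1.08 (SE 0.16, adjusted p = 0.00393), and by 0.94 without B16-F1 replicate 1, under the minimum fold. Acsm3, a medium-chain synthetase, was at least 1.67-fold higher, with no D5.1G4 array well above background. This bound is under the minimum fold, and the call rests on the fitted difference (adjusted p = 0.0182). With slide as a block the fitted difference of Acsm3 was 0.57, against 1.33 without the block, and it was not called (adjusted p = 0.11). That value is from slide 2 alone, and is a smaller fold than the bound. Its adjusted p was 0.0647 when B16-F1 replicate 3 was left out, and 0.0551 or 0.0573 when D5.1G4 replicate 1 or 2 was. Slc25a20, the carnitine-acylcarnitine carrier, named here after its values were seen to complete the count, was higher by 1.03 (SE 0.26, adjusted p = 0.0248). With slide as a block it was higher by 0.72, a value from slide 2 alone, and was not called (adjusted p = 0.241). Slc25a20 was not called either when B16-F1 replicate 3 was left out (0.78), nor when replicate 1 (adjusted p = 0.0586) or replicate 3 (0.90) of D5.1G4 was.

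**Figure D5:**
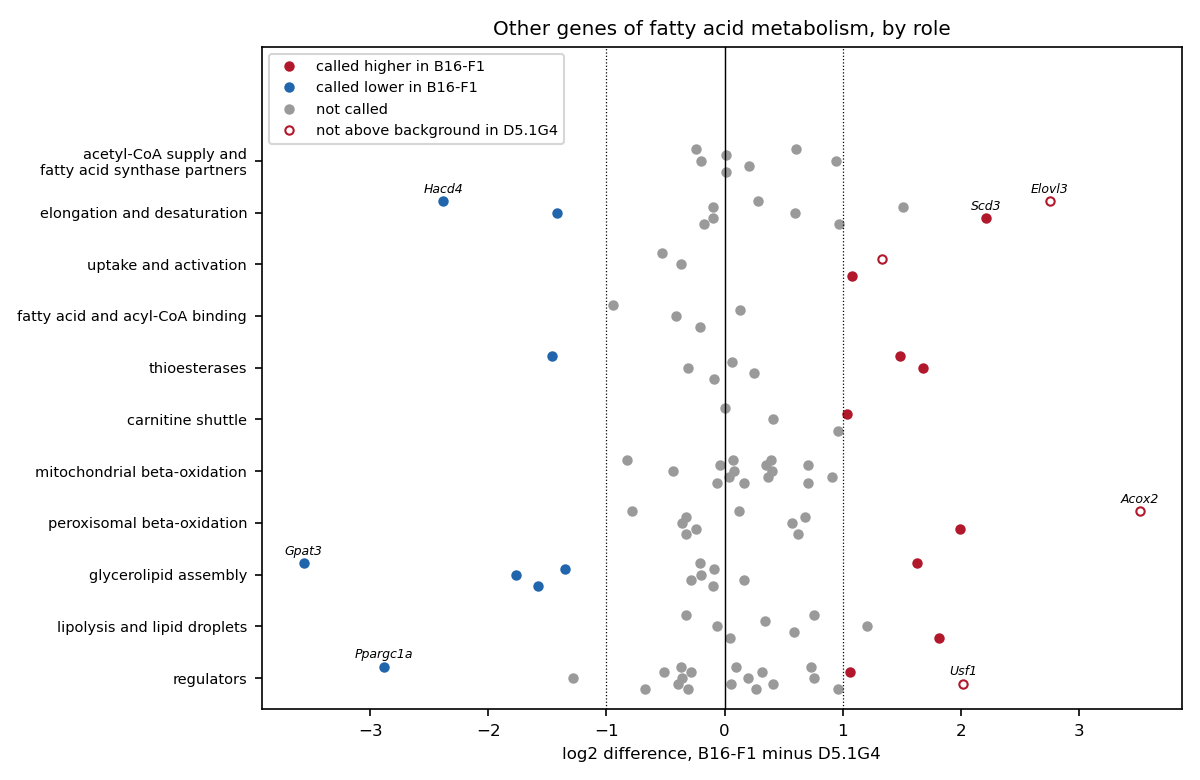
Log2 difference, B16-F1 minus D5.1G4, of the 102 tested genes of the further list by role, with a fold of 2 as dotted lines and hollow points for calls where no D5.1G4 array was well above background, whose differences are not bounds. Calls lie on both sides, Gpat3 (-3.56) and Ppargc1a (-2.89) furthest to the left, and no gene of mitochondrial beta-oxidation is called.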

How the data were processed

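RNA of 2 mouse melanoma lines was measured on 6 one-colour arrays, 3 for each line, with line and replicate number taken from the titles. The deposited scanner files hold linear spot intensity after background subtraction and detrending by Agilent Feature Extraction 11.0.1.1, with flags of 0 or 1 for spots well above background, non-uniform, outlying or saturated, per the file headers. No spot was saturated. The authors' deposited table holds log2 values of 22147 probes, and its normalization is not given in any source used here. The array annotation is on the mm9 build, per the file headers.

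From the intensity, log2 was taken and the array's 75th percentile subtracted. Spots marked non-uniform or outlying (0.67% to 1.58% of an array) were set missing and dropped from the fit, and spots of a probe were averaged. Accessions were matched to RefSeq genes of GRCm38.p6, for 27234 of 39429 probes. A gene was represented by its brightest probe, on the mean of all arrays. Features well above background on at least 3 arrays were tested with limma 3.58.1 in R 4.3.3 (lmFit, eBayes, 2-sided), with no term but the line and with Benjamini-Hochberg adjustment over the 18442 features. All adjusted p-values of genes come from limma, with n = 3 arrays a line except where a sentence gives fewer. Differences are B16-F1 minus D5.1G4. Where no array of a line was well above background, the fold is a bound ("at least"): the mean of the brighter line is set against a floor, which on each array of the dimmer line is the probe's own signal or the lowest one called well above background, whichever is higher. The adjusted p beside a bound is that of the fitted difference, not of the bound. A bound is of means, and makes no allowance for the spread of the arrays or for other background corrections. For Acsl6, Acox2, Usf1 and Acsm3 the fitted difference with normexp was a smaller fold than the bound. Genes with a bound passed the filter through the brighter line alone. Their calls use the fitted difference, and some of these bounds lie under the minimum fold. The number of arrays limits the precision.

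The fatty acid genes, the further list, the markers and the alternatives were chosen with earlier results of these data known, so no count is independent support. Some glial markers are not reported here. Values on every array are given for each called gene and for Acly, Acaca, Fasn, Scd1, Scd2, Elovl6, Acsl3, Acsl4, Cpt1a, Acadm, Hadha, Dgat1 and Srebf1 whatever their values. Of the further list the called genes are named, at most 12 in each direction by size. Alternatives were normexp background correction with an offset of 50 (on the median signal and background of a spot, since no mean signal was among the columns), quantile normalization, the authors' values, other filters, the mean over probes, slides, replicates left out, the replicate number as a block, and other limma settings. The fit was tested on simulated data of 17659 features, of which 100 were shifted by 1.5 and 100 by 3 on the log2 scale. It called 71% and 89% of these, with 10 false calls. Far fewer features differed there than in the data, and no slide effect was simulated. These figures therefore do not give the recovery or false calls of the comparison itself.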

Additional observations from a re-analysis of the deposited data

How the results depend on the processing

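Across the 21 alternatives the 42 genes tested gave 873 values, of which 822 kept direction and call, 12 lost the call, 11 gained one and 28 changed sign, none of a called gene. Called genes of the further list changed no sign, and 9 of the 21 were called in every alternative. Of all features, 6434 were called with no minimum fold and 1251 with normexp background correction. With the mean over probes, 10 fatty acid genes were called higher and 1 lower (6.43% and 8.54% of all features), and with no minimum fold 12 and 8 (14.5% and 20.4% of all features). Of the further list, 25, 3 and 7 were called higher with no minimum fold, with normexp and with all 6 arrays well above background, and 13 were called lower with no minimum fold. The cause was not tested.

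Leaving out 1 array at a time gave 2530 to 3375 features, 9 to 10 fatty acid genes called higher and 2 called lower each time, and 12 to 15 higher and 8 to 9 lower of the further list. With the replicate block, 2584 features were called and 10 fatty acid genes higher and 2 lower. For these fits the shares of all features by direction are not given here, so the counts of genes are not set against them. Same-numbered arrays did not deviate together (correlations of -0.39, 0.06 and -0.33). Each line had few arrays, and no same-numbered arrays shared a slide. These correlations therefore cannot decide whether same-numbered samples were cultured or processed together. Slide as a block gave 2573 features, slide 2 alone 2735, and leaving out slide 1, so that 1 B16-F1 array is assumed to vary as those of D5.1G4 do, gave 2132.

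Sign changes were all of genes not called. In the authors' values Acadm was 0.0072 and Scd2 0.18, with quantile normalization Scd2 was 0.16, and with the mean over probes Elovl1 was 0.028. With slide as a block, and within slide 2, Acacb was 0.31, Acadm 0.056, Dgat2 0.15, Elovl5 0.0024 and Fads2 -0.0060. Without slide 1, Acacb was 0.30, Acadm 0.040, Dgat2 0.15 and Slc27a1 -0.14, and without slide 3 Acadm was 0.0084. Leaving out 1 array put Acacb between -0.26 and 0.11, Acadm between -0.059 and 0.028, Dgat2 between -0.080 and 0.098, Slc27a4 between -0.35 and 0.037, Scd2 between -0.18 and 0.011, and Acsl3 between -0.91 and 1.72. Signal over background limits what can be said of Lipe, Gpam, Thrsp and of the D5.1G4 level of Acsl6.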
